A study of Mus musculus with 8 samples.

Results

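The genes described here are 10 proteases and protease inhibitors of the extracellular matrix, chosen by symbol from the 24940 genes of a liver RNA-seq table. They are *Mmp2*, *Mmp12*, *Mmp14*, *Mmp15* and *Mmp19* (matrix metalloproteinases), *Bmp1* and *Adamts1* (2 further secreted metalloproteinases) and *Timp1*, *Timp2* and *Timp3* (tissue inhibitors of metalloproteinases). All 10 were found in the table. Poly(A) RNA was sequenced from livers of 4 FXRKO and 4 BCL6LKOFXRKO C57BL/6 males. Mice of both groups were homozygous for a whole-body deletion of FXR, the bile acid receptor, and carried both copies of *Bcl6* with loxP sites. The BCL6LKOFXRKO mice additionally carried Alb-Cre, a Cre recombinase under the albumin promoter that deletes *Bcl6* in hepatocytes. Whether *Bcl6* was intact in all other cells of the liver was not tested. The 2 groups therefore differ by the Cre transgene and by hepatocyte *Bcl6* together. The age of the mice is not given in the sources used here, nor whether each was fed freely or briefly fasted.

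Matrix metalloproteinases are zinc enzymes made as inactive precursors that cut collagens, elastin and other matrix proteins once their propeptide is removed, and TIMPs block them by binding to the active site. In the liver, stellate cells, fibroblasts, macrophages and hepatocytes contribute different members of these families, and the balance between proteases and TIMPs is a classical theme of scar formation and resolution. MMP14, which sits in the cell membrane, can bind TIMP2 and in this complex activates the precursor of MMP2.

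The libraries held between 7586241 and 11839503 counts on genes. *Bcl6* was at 49.6 ± 19.4 CPM (the usual unit of counts relative to library size, here with TMM factors) in FXRKO livers and at 7.44 ± 3.24 in BCL6LKOFXRKO livers (SD, n = 4 in each), with all 4 BCL6LKOFXRKO livers lower. *Nr1h4*, the gene of FXR, still had counts in both groups, at 60.0 ± 2.46 CPM in FXRKO and 43.5 ± 3.69 CPM in BCL6LKOFXRKO livers (SD, n = 4, log2 fold change -0.46, edgeR adjusted p = 0.00497). Counts summed over a transcript do not resolve the deleted part, so they do not check the FXR deletion. *Alb*, the defining hepatocyte gene, was abundant in every library but took between 4.04% and 5.16% of the counts in FXRKO livers and between 11.9% and 13.2% in BCL6LKOFXRKO livers. Library scaling therefore matters here: without TMM factors all log2 fold changes shift by a median of -0.16, and calls that depend on this are named below.

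Of the 10 genes, 7 were higher and 1 was lower in BCL6LKOFXRKO than in FXRKO livers at an adjusted p under 0.05 (quasi-likelihood test of edgeR, p adjusted by Benjamini-Hochberg over 12340 tested genes). The higher genes were *Mmp2*, *Mmp12*, *Mmp14*, *Adamts1*, *Timp1*, *Timp2* and *Timp3*, with rises between 1.57-fold and 3.85-fold in mean CPM. *Bmp1* was lower, and *Mmp15* and *Mmp19* did not pass the test. The count of 7 includes *Timp1*, for which 1 of 4 FXRKO livers reached the level of the expression filter (1.04 CPM), and *Mmp12*, for which 3 of 4 did. Both reached it in all 4 BCL6LKOFXRKO livers, and neither call held in every alternative. By the same rule 16.2% of all tested genes were called higher and 13.5% lower. The same 7 and 1 genes also passed a log2 fold change of 0.5 in size, as did 14.1% of tested genes upward and 9.84% downward. The median log2 fold change was 0.90 over the 10 genes and 0.01 over all tested genes. In 6 of the 10 genes every BCL6LKOFXRKO liver was above every FXRKO liver, a separation found upward in 16.1% and downward in 15.2% of tested genes. RNA came from whole liver, so a larger number of cells of a type and more RNA per cell cannot be told apart.

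**Figure D1:**
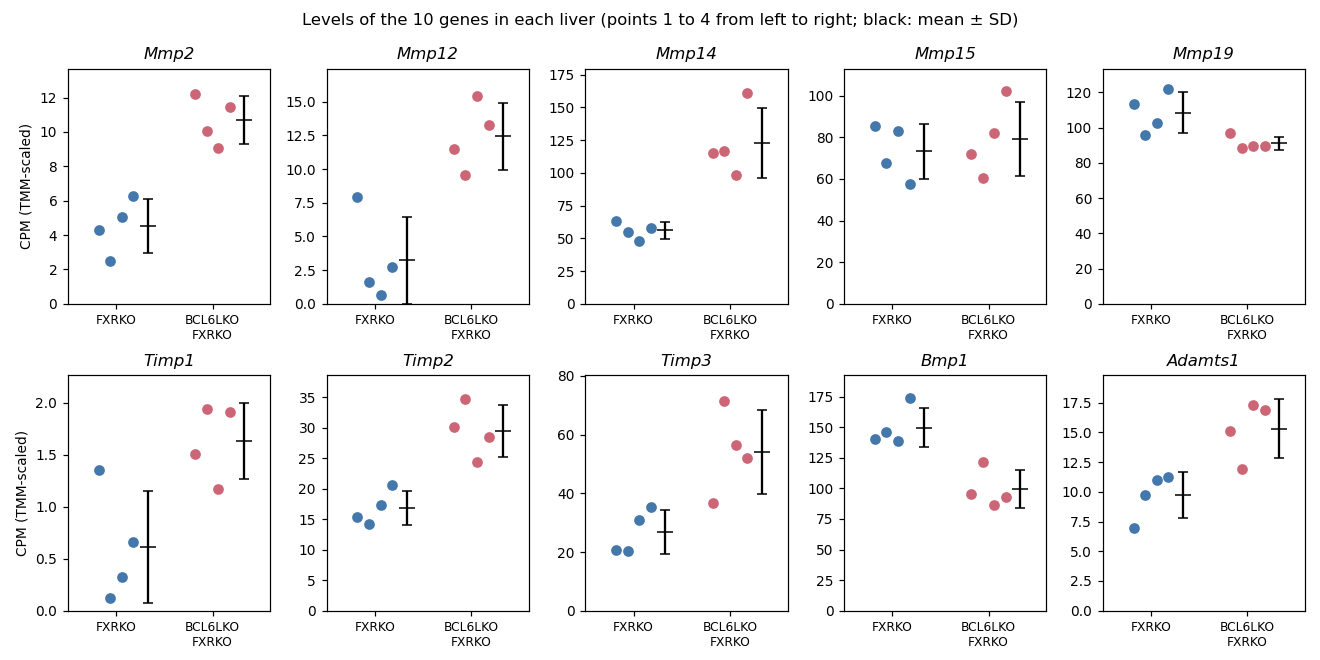
Levels of the 10 genes in CPM (vertical axes, each from 0) in the FXRKO (blue) and BCL6LKOFXRKO (red) livers, each point being 1 liver and the black marks the mean ± SD of 4 livers. The groups do not overlap for *Mmp2*, *Mmp12*, *Mmp14*, *Timp2*, *Timp3*, *Adamts1* and *Bmp1*, and they overlap for *Mmp15*, *Mmp19* and *Timp1*.

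Among the membrane-bound proteases, *Mmp14* rose and *Mmp15* did not pass the test. *Mmp14* (NM_008608, mm10 chromosome 14 from 54431598 to 54442456) encodes MT1-MMP, which cuts fibrillar collagen at the cell surface. It was at 63.3, 55.0, 48.0 and 57.7 CPM in FXRKO livers 1 to 4 and at 115, 117, 98.2 and 161 CPM in BCL6LKOFXRKO livers 1 to 4. Every BCL6LKOFXRKO liver was above every FXRKO liver, and liver 4 was the highest. The means rose 2.19-fold, with a log2 fold change of 1.13 (SE 0.15, edgeR adjusted p = 0.000121), the smallest adjusted p of the 10 genes. *Mmp15* (NM_008609, chromosome 8 from 95352296 to 95374293) encodes its close relative MT2-MMP. It was at 85.3, 67.9, 82.9 and 57.3 CPM in FXRKO livers and at 72.2, 60.3, 82.2 and 102 CPM in BCL6LKOFXRKO livers. The groups overlapped almost completely apart from BCL6LKOFXRKO liver 4, the highest of the 8. The log2 fold change of *Mmp15* was 0.11, with a 95% confidence interval from -0.25 to 0.48 (edgeR adjusted p = 0.647), and its sign turned to -0.04 with total counts alone.

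The difference between these 2 relatives was tested within each liver, where library scaling cancels. The ratio of *Mmp14* to *Mmp15*, each per transcript length, was 0.843, 0.922, 0.659 and 1.14 in FXRKO livers and 1.81, 2.20, 1.36 and 1.78 in BCL6LKOFXRKO livers. All 4 BCL6LKOFXRKO livers were above the FXRKO livers, so the relative abundance of the 2 transcripts turned from near equal to an excess of *Mmp14*. The mean log2 ratio was higher by 1.01 (exact two-sided permutation test p = 0.0286, the smallest that 4 livers against 4 allow). Adjusted over the 6 ratios computed, p was 0.171, which is also the smallest possible when 1 of 6 ratios reaches that limit.

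The sequences before the transcription start of this pair are shown because the members are so alike in function and differ in response. RefSeq sequences on GRCm38.p6, the build of mm10, were at hand for 7 of the 10 genes, and each is the 250 bases before the start on the gene's strand. Capitals mark GGGCGG on either strand, the letters known as an SP1 box, which 32.9% of 27025 promoters of this length hold. *Mmp14* (chr14:54431348-54431597, plus strand) holds 2 such matches and *Mmp15* (chr8:95352046-95352295, plus strand) holds 1.
*Mmp14*: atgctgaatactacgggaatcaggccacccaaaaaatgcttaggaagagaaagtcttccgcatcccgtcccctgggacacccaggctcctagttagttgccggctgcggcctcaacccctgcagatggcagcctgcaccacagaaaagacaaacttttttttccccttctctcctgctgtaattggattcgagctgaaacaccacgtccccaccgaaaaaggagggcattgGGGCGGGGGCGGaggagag
*Mmp15*: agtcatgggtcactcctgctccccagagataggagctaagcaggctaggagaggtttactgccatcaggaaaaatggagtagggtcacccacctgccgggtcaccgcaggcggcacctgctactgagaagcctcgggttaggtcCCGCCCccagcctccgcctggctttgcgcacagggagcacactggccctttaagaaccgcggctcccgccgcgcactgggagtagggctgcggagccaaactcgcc
Neither holds TATAAA, the TATA box, and the 250 bases are 55.2% G and C in *Mmp14* and 63.6% in *Mmp15*. A match describes letters only.

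Of the secreted metalloproteinases, *Mmp2* and *Mmp12* rose and *Mmp19* did not pass the test. *Mmp2* (NM_008610, chromosome 8 from 92827297 to 92853421), gelatinase A, cuts denatured collagen and basement membrane collagen. It was at 4.27, 2.499, 5.05 and 6.24 CPM in FXRKO livers and at 12.2, 10.1, 9.06 and 11.4 CPM in BCL6LKOFXRKO livers. The groups were well apart, with the lowest BCL6LKOFXRKO liver above the highest FXRKO liver. The estimated log2 fold change was 1.23 (SE 0.23, edgeR adjusted p = 0.00164), a 2.37-fold difference of the means that rests on 20 to 66 counts per FXRKO liver and 83 to 126 per BCL6LKOFXRKO liver.

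*Mmp12* (NM_001320076, chromosome 9 from 7347374 to 7360461), macrophage elastase, had the largest log2 fold change of the 10 genes and the widest interval. It was at 7.91, 1.62, 0.645 and 2.74 CPM in FXRKO livers and at 11.5, 9.59, 15.4 and 13.3 CPM in BCL6LKOFXRKO livers. All BCL6LKOFXRKO livers were above the FXRKO livers, but FXRKO liver 1 stood nearer to them than to the rest of its own group. The log2 fold change was 1.93 (SE 0.55, 95% confidence interval from 0.67 to 3.18, edgeR adjusted p = 0.0296). Without FXRKO liver 1 it was 2.86 (edgeR adjusted p = 0.000107). The call was lost with no filter on low counts and when FXRKO liver 2 or 4 or BCL6LKOFXRKO liver 1, 3 or 4 was left out, and over all 14 alternatives the adjusted p ran from 0.000107 to 0.0784.

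The *Mmp12* sequence is shown because it alone of the 7 promoters at hand holds TGANTCA (in capitals), the binding letters of the AP-1 factors. The match begins 44 bases before the start. *Mmp12* has 2 promoters in this source, and only the one at the start of the counted transcript was examined. Of all promoters of this length, 6.87% hold these letters on either strand. The *Mmp12* window shown is also the only 1 of the 7 without GGGCGG, and its 250 bases are 39.6% G and C.
*Mmp12* (chr9:7347124-7347373, plus strand): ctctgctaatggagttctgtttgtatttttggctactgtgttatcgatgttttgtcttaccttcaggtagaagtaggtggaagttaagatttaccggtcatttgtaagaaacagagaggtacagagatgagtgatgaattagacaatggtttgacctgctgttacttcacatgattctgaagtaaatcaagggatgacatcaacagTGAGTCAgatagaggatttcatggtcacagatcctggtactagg
The palindrome TTCNNNGAA, which STAT factors bind and which the core of the BCL6 motif resembles, was in none of the 7 windows and in 7.18% of all promoters. This says only that these letters are absent from 250 bases.

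*Mmp19* (NM_021412, chromosome 10 from 128790955 to 128800827), a secreted metalloproteinase that acts on basement membrane proteins, was among the more abundant members. It was at 114, 95.6, 103 and 122 CPM in FXRKO livers and at 96.8, 88.6, 89.3 and 89.3 CPM in BCL6LKOFXRKO livers. The highest BCL6LKOFXRKO liver, liver 1, lay just above the lowest FXRKO liver. Its log2 fold change of -0.25 (95% confidence interval from -0.49 to -0.02) had an adjusted p of 0.0920 from edgeR. With total counts alone it was -0.41 with an adjusted p of 0.0131, the only alternative to call it. *Mmp19* shares 789 exonic bases with *Tmem198b* on the opposite strand (GENCODE M21), which had between 247 and 488 counts per liver, and the stated counting options name no strand.

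*Bmp1* and *Adamts1* moved in opposite directions. The gene *Bmp1* (chromosome 14 from 70474555 to 70520260) encodes the procollagen C-proteinase, which removes the C-terminal propeptide of fibrillar procollagens so that fibrils can form. The table counts it on NR_033241, a non-coding transcript model of the gene. It was at 140, 146, 139 and 174 CPM in FXRKO livers and at 95.6, 122, 86.6 and 92.7 CPM in BCL6LKOFXRKO livers. All 4 BCL6LKOFXRKO livers were below the FXRKO livers, and *Bmp1* was the only one of the 10 genes called lower with TMM factors. Its log2 fold change came to -0.59 (SE 0.13, edgeR adjusted p = 0.00399), and it stayed below an adjusted p of 0.05 in each of 15 alternatives, the highest being 0.0155. *Adamts1* (NM_009621, chromosome 16 from 85793828 to 85803113), a protease of versican and other proteoglycans, was at 6.97, 9.75, 11.0 and 11.3 CPM in FXRKO livers and at 15.1, 11.9, 17.3 and 16.9 CPM in BCL6LKOFXRKO livers. The groups did not overlap, although BCL6LKOFXRKO liver 2 came close to FXRKO liver 4. For *Adamts1* the log2 fold change was 0.65 (SE 0.18, edgeR adjusted p = 0.0157), the smallest rise of the 7. With total counts alone it was 0.50 and missed the threshold (edgeR adjusted p = 0.0543).

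*Timp2* and *Timp3* rose, and *Timp1* passed the test with few counts and overlapping groups. *Timp2* (NM_011594, chromosome 11 from 118301061 to 118355411), the partner of MMP14 in the activation of MMP2, was at 15.4, 14.2, 17.4 and 20.6 CPM in FXRKO livers and at 30.1, 34.7, 24.4 and 28.5 CPM in BCL6LKOFXRKO livers. The lowest BCL6LKOFXRKO liver was above the highest FXRKO liver. *Timp2* thus had a log2 fold change of 0.79 (SE 0.15, edgeR adjusted p = 0.00163). *Timp3* (NM_011595, chromosome 10 from 86300412 to 86349505), which binds to the matrix and also inhibits ADAM and ADAMTS proteases, was at 20.6, 20.2, 30.8 and 35.3 CPM in FXRKO livers and at 36.7, 71.6, 56.5 and 51.9 CPM in BCL6LKOFXRKO livers. Its groups just failed to touch, between FXRKO liver 4 and BCL6LKOFXRKO liver 1. The rise of *Timp3* was 1.01 on the log2 scale (SE 0.22, edgeR adjusted p = 0.00586). *Timp3* shares 1733 exonic bases with *Syn3* on the opposite strand, which had between 16 and 38 counts per liver against 162 to 590 of *Timp3*.

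*Timp1* (NM_001044384, chromosome X from 20870166 to 20874737), the inhibitor classically induced in injured liver, was the scarcest of the 10 genes. Its counts were 13, 1, 3 and 7 in FXRKO livers and 15, 16, 12 and 21 in BCL6LKOFXRKO livers, or 1.35, 0.125, 0.322 and 0.662 CPM against 1.51, 1.94, 1.17 and 1.91 CPM. The groups overlapped, since FXRKO liver 1 lay above BCL6LKOFXRKO liver 3. Only 1 FXRKO liver but all 4 BCL6LKOFXRKO livers reached the level that the expression filter asks for, so *Timp1* was tested because of the group in which it was higher. Its log2 fold change of 1.34 (SE 0.47, 95% confidence interval from 0.32 to 2.36) had an adjusted p of 0.0484 from edgeR, just inside the threshold. It lost the call with total counts alone (adjusted p = 0.0653), after removal of the 50 genes with most counts (adjusted p = 0.0509) and when FXRKO liver 2, 3 or 4 or BCL6LKOFXRKO liver 1, 2 or 4 was left out, with adjusted p up to 0.130 (all from edgeR). Without FXRKO liver 1 the log2 fold change was 2.02 (edgeR adjusted p = 0.00916). The exact permutation test on its CPM gave p = 0.0571.

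**Figure D2:**
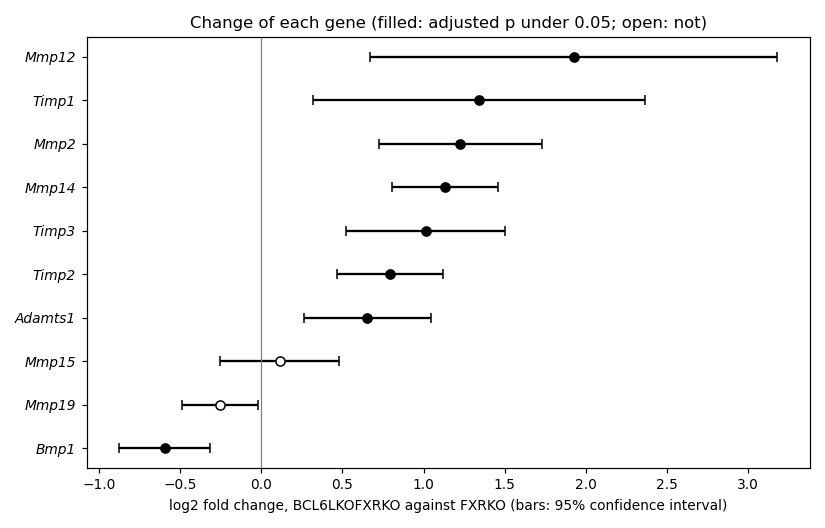
Log2 fold change of each of the 10 genes (horizontal axis, BCL6LKOFXRKO against FXRKO, n = 4 livers in each) with its 95% confidence interval from edgeR, filled where the adjusted p was under 0.05. *Mmp12* (1.93) and *Timp1* (1.34) have the largest estimates and the widest intervals, *Mmp15* (0.11) and *Mmp19* (-0.25) are open, and *Bmp1* (-0.59) is the only filled point to the left of 0.

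Compared per transcript length, as reads per kilobase scaled to the same libraries (RPKM), the 10 genes spanned a 48.4-fold range in FXRKO livers and a 17.5-fold range in BCL6LKOFXRKO livers. In FXRKO livers *Bmp1* was the most abundant, at 33.8 ± 3.64 RPKM (SD, n = 4), next to *Mmp19* at 31.9 ± 3.41, and the 2 ranges overlapped. *Mmp15* and *Mmp14* followed at 17.0 ± 3.06 and 14.8 ± 1.67 RPKM, also overlapping each other but clear of *Mmp19* above and of the TIMPs below. *Timp3* and *Timp2* lay at 5.72 ± 1.61 and 4.68 ± 0.773 RPKM, and *Adamts1*, *Mmp2*, *Mmp12* and *Timp1* formed the lowest tier, between 1.998 and 0.698 RPKM on average, each overlapping the next.

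In BCL6LKOFXRKO livers *Mmp14* headed the order at 32.4 ± 7.04 RPKM, followed by *Mmp19* at 26.8 ± 1.14, *Bmp1* at 22.4 ± 3.51 and *Mmp15* at 18.4 ± 4.14 (SD, n = 4), each overlapping its neighbour. *Timp3* was at 11.6 ± 3.08 and *Timp2* at 8.15 ± 1.17 RPKM, again overlapping. *Mmp2*, *Mmp12* and *Adamts1* were indistinguishable by their ranges, at 3.50, 3.40 and 3.14 RPKM on average, and clear of *Timp1* at 1.85 ± 0.414 RPKM. By mean RPKM the most abundant inhibitor was *Timp3* and the scarcest *Timp1* in both genotypes.

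**Figure D3:**
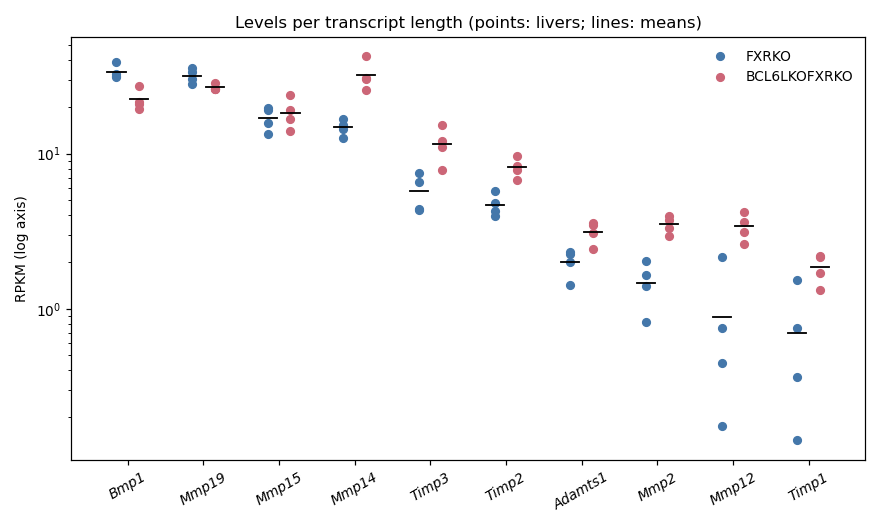
Levels per transcript length in RPKM on a log axis, ordered by the FXRKO mean, with 1 point per liver and a line at the mean of 4 livers (FXRKO blue, BCL6LKOFXRKO red). *Bmp1* leads in FXRKO livers (33.8 RPKM) and *Mmp14* in BCL6LKOFXRKO livers (32.4 RPKM), while *Timp1* is lowest in both.

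The ratios of proteases to the inhibitors they are known to meet did not pass a test. The ratio of *Mmp2* to *Timp2*, per length, was 0.330, 0.212, 0.346 and 0.360 in FXRKO livers and 0.480, 0.345, 0.439 and 0.475 in BCL6LKOFXRKO livers. Its mean log2 ratio was higher by 0.50, with FXRKO livers 3 and 4 just above BCL6LKOFXRKO liver 2 (exact permutation p = 0.0857, adjusted over 6 ratios 0.257). The log2 ratio of *Mmp14* to *Timp2* differed by 0.31 (exact permutation p = 0.257) and that of *Mmp14* to *Timp3* by 0.09 (exact permutation p = 0.543), both overlapping between groups. *Mmp12* to *Timp1* differed by 0.76 (exact permutation p = 0.257) with FXRKO livers from 0.448 to 2.17, and *Adamts1* to *Timp3* by -0.36 (exact permutation p = 0.343). The log2 ratios varied between livers of 1 genotype with SDs from 0.22 to 0.96, and a p above the threshold does not show that a ratio was the same in both genotypes.

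**Figure D4:**
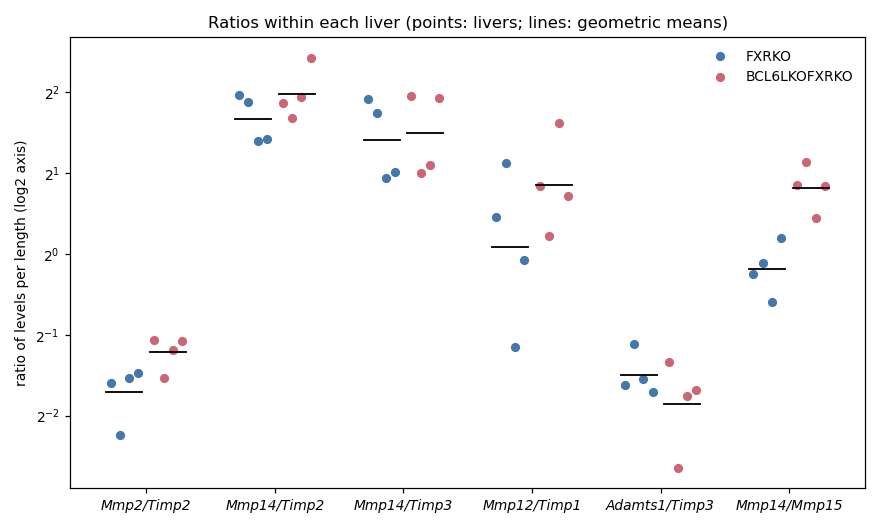
Ratio of 2 genes within each liver, per transcript length and on a log2 axis, with 1 point per liver and a line at the geometric mean of 4 livers (FXRKO blue, BCL6LKOFXRKO red). The groups separate for *Mmp14*/*Mmp15*, from at most 1.14 in FXRKO livers to at least 1.36 in BCL6LKOFXRKO livers, and overlap for the other 5 ratios.

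Other genes of matrix turnover were counted in 7 lists, in which genes low in one genotype could pass the filter through the other. Their counts stand beside the 16.2% of all tested genes called higher and the 13.5% called lower. Of 18 other matrix metalloproteinases 6 passed the filter, and *Mmp24*, *Mmp11* and *Mmp23* were called higher, with log2 fold changes of 1.28, 1.35 and 0.83 (adjusted p = 0.00350, 0.00682 and 0.0375 from edgeR), and none lower. The median over these 6 genes was 1.13. Neutrophil collagenase *Mmp8* and gelatinase B *Mmp9* did not pass, with at most 11 and 13 counts in any liver. Of 23 other ADAMTS and ADAMTS-like genes 13 passed, 7 were called higher and none lower, and the median of the 13 was 1.06 on the log2 scale. The leading genes were *Adamtsl2* (1.46), *Adamtsl1* (1.96) and *Adamts2* (1.31 on the log2 scale), the last being the procollagen N-proteinase. All 4 BCL6LKOFXRKO livers were above the FXRKO livers for each of these 3 genes. For *Adamtsl1* and *Mmp11*, however, no FXRKO liver reached the filter level of 1.04 CPM, with at most 8 and 7 counts. Both were thus tested because of the group in which they were higher.

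Of 12 genes of the ADAM family, many of which encode proteases that shed proteins from the cell surface, 9 passed. The calls were few in either direction, with *Adam10* and *Adam15* higher (log2 fold changes of 0.77 and 0.79) and *Adam11* and *Adam9* lower (-1.77 and -0.46). Among 11 genes around procollagen processing by BMP1, 8 passed, 5 were called higher and none lower, and their median was 0.79 on the log2 scale. *Pcolce*, the enhancer of BMP1, was at 14.7 ± 3.64 CPM in FXRKO and 30.2 ± 7.89 CPM in BCL6LKOFXRKO livers (SD, n = 4), a log2 fold change of 1.02 (edgeR adjusted p = 0.00252), so it moved opposite to *Bmp1*. The fibrillar collagens *Col1a2* and *Col5a2* had log2 fold changes of 0.81 and 0.96. *Col1a1* did not pass, at 0.76 (edgeR adjusted p = 0.100), and the tolloid proteases *Tll1* and *Tll2*, the closest relatives of *Bmp1*, had at most 2 and 0 counts in any liver.

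Of 11 other inhibitors and activators of metalloproteinases 9 passed. *Bsg*, which encodes the metalloproteinase inducer CD147, and *Thbs2* were called higher (log2 fold changes of 0.72 and 0.91), and *Pcsk6*, a proprotein convertase, lower (-0.77, edgeR adjusted p = 0.000262). *Furin*, the convertase that activates membrane-type metalloproteinases, did not pass at -0.25 (edgeR adjusted p = 0.116), and *Timp4* had at most 1 count in any liver. In the plasminogen system 7 of 8 genes passed, *Plgrkt* was called higher (0.73) and *Serpine2*, an inhibitor of serine proteases, lower (-2.73, edgeR adjusted p = 0.00251), 1 call in each direction among 7 genes. In the list of cathepsins and serine matrix proteases 11 of 12 genes passed, with 7 called higher and none lower and a median of 0.72. The calls were led by *Ctsz* (1.51), *Ctsb* (0.70) and *Ctss* (0.72 on the log2 scale). The 7 include *Cst3* (0.51, edgeR adjusted p = 0.00986), which encodes cystatin C, an inhibitor of cathepsins and not a protease.

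**Figure D5:**
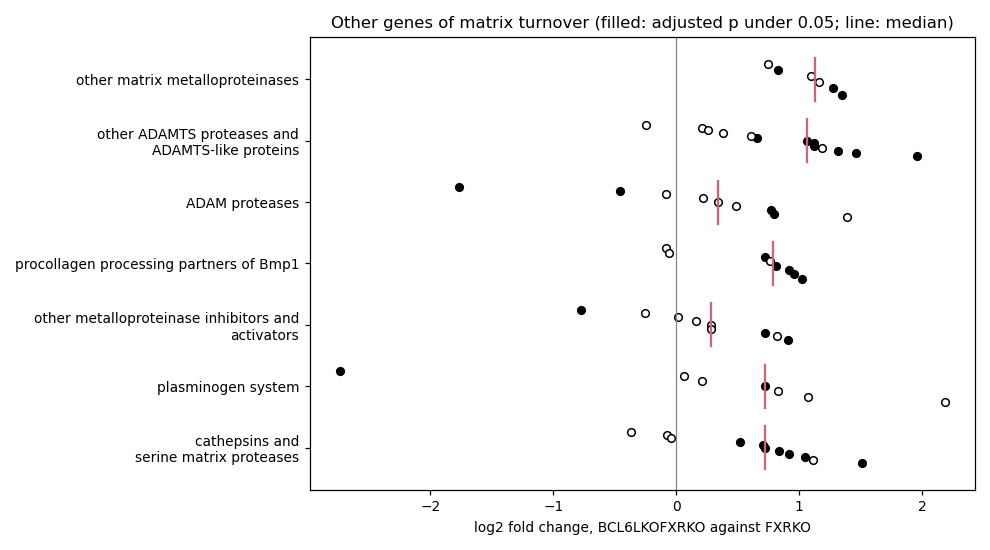
Log2 fold change (horizontal axis, BCL6LKOFXRKO against FXRKO, n = 4 livers in each) of the tested genes of 7 lists of matrix turnover, each point being 1 gene, filled where the adjusted p from edgeR was under 0.05, and the line the median of the list. The medians lie between 0.28 and 1.13, and filled points left of 0 are *Adam11*, *Adam9*, *Pcsk6* and *Serpine2*.

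Markers of liver cell types differed in how far they moved with the genotype. The counts of markers called also stand beside the 16.2% of all tested genes called higher and the 13.5% called lower. The summed level of 11 stellate cell and fibroblast markers was between 223 and 307 CPM in FXRKO and between 463 and 548 CPM in BCL6LKOFXRKO livers, with 9 of the 11 called higher. For 11 macrophage and Kupffer cell markers the sums were between 251 and 326 and between 344 and 573 CPM, with 5 called higher and 6 not called, among them *Adgre1*, which differed by 0.23 on the log2 scale (edgeR adjusted p = 0.272). The 7 cholangiocyte markers summed to between 42.9 and 69.2 and between 76.5 and 136 CPM, with 2 of 5 tested called higher. Most of this sum was *Spp1*, at 43.4 ± 7.51 CPM in FXRKO and 87.2 ± 25.1 CPM in BCL6LKOFXRKO livers (SD, n = 4). *Krt19* (1.28 on the log2 scale) was the other call, and *Epcam* (0.78), *Sox9* (-0.81) and *Muc1* (0.06) were not called. The 8 endothelial markers overlapped, at 163 to 228 and 204 to 274 CPM, with *Stab2* alone called higher (0.63), and of the 7 lymphocyte and neutrophil markers in the table only 2 were tested and 1 called higher, the neutrophil gene *S100a9* (1.29, edgeR adjusted p = 0.00588). Their sums were between 4.51 and 8.33 CPM in FXRKO and between 10.6 and 16.5 CPM in BCL6LKOFXRKO livers, and *Cd3e* was at or below 10 counts in every liver. The 8 hepatocyte markers summed to between 64181.5 and 73897.6 CPM in FXRKO and between 156079 and 175542 CPM in BCL6LKOFXRKO livers. Most of this sum was *Alb*, at 44554.2 ± 4421.76 CPM in FXRKO and 135488 ± 8122.07 CPM in BCL6LKOFXRKO livers (SD, n = 4). Of the 8 hepatocyte markers 3 were called higher, *Alb* included, and 1 lower, and the median of the 8 was 0.01 on the log2 scale. No defining marker of these lists was at 0 in all livers, and the part of cell numbers in the changes of the 10 genes was not tested.

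FXRKO liver 1 had the highest *Mmp12* and *Timp1* of its group, and its place among the 4 FXRKO livers differed between the marker lists (examined after the values were seen). It was the highest for 6 of 7 cholangiocyte markers and the lowest for 0, but the lowest for 7 of 8 endothelial markers. Among 11 stellate cell and fibroblast markers it was the highest for 3 (*Des*, *Acta2* and *Tagln*) and the lowest for 5 (*Lrat*, *Reln*, *Rgs5*, *Dcn* and *Col14a1*). Among 8 hepatocyte markers it was the highest for 1 and the lowest for 2. For the 7 lymphocyte and neutrophil markers these numbers were 2 and 3. Among 11 macrophage markers it was the highest for 4 (*Trem2*, *Gpnmb*, *Ccr2* and *Itgax*) and the lowest for 2 (*Csf1r* and *Timd4*). *Gpnmb* was at 2.29 CPM and *Trem2* at 2.19 CPM in FXRKO liver 1, against at most 0.662 and 1.23 CPM in the other FXRKO livers. In BCL6LKOFXRKO livers *Gpnmb* was between 19.0 and 62.0 CPM and *Trem2* between 6.33 and 11.9 CPM. Within BCL6LKOFXRKO livers the order of *Mmp12* differed from that of *Gpnmb*, with liver 3 the highest for *Mmp12* and the lowest for *Gpnmb*. *Vsig4*, another of the 11 macrophage markers, had the same order as *Mmp12*, at 33.4, 32.3, 42.7 and 37.8 CPM in livers 1 to 4. The order of 4 livers does not show whether a marker follows *Mmp12*. Whether these markers and *Mmp12* come from the same cells was not tested.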

How the data were processed

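Single-end reads of 100 bp from a stranded kit had been mapped by the authors with STAR 2.5.2 on mm10, and only reads with 1 location were kept. The deposited table holds unnormalised counts from HOMER 4.10, summed over the exons of 1 transcript for each gene, with no strand option named (versions per the submitters' processing notes). The paper's methods name DESeq2.

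The main tests used edgeR 4.0.16 under R 4.3.3 (filterByExpr, TMM, robust quasi-likelihood fits, Benjamini-Hochberg adjustment over 12340 genes). The threshold for a call was an adjusted p of 0.05. CPM and RPKM use the TMM factors and the transcript length in the table. Ratios used a pseudocount of 0.5 counts and exact two-sided permutation tests over 70 orderings. The detection floor, 3 counts, lies between 0.253 and 0.395 CPM and, like the counts, covers counting error only. No 2 libraries of 1 genotype agreed within sampling noise (chi-square per degree of freedom from 10.8 to 49.9). The fits were tested on simulated data. Nothing says whether other factors were shared between mice. The p-values set the difference between the genotypes against the variation between these livers and take no account of such factors.

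Alternatives were DESeq2 1.42.0, limma 3.58.1 (voom with quality weights), RLE factors, total counts alone, the 50 most counted genes left out, other filters, a fold threshold and each liver left out. The 10 genes and the gene lists were chosen with earlier results of these data known. The genes named are the 10, the called genes with the smallest adjusted p in each list (up to 3 in each direction), the defining cell markers, *Bcl6*, *Nr1h4* and *Col1a1*. Genes named outside this rule were chosen after their values were seen. They are *Mmp8*, *Mmp9*, *Tll1*, *Tll2*, *Timp4*, *Furin*, *Cst3*, *S100a9*, *Spp1*, *Epcam*, *Sox9*, *Muc1*, *Vsig4* and the markers named for FXRKO liver 1.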

Additional observations from a re-analysis of the deposited data

Results flagged for a closer look

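Among 32 groups of 4 livers (the 10 genes and 6 ratios in each genotype), 2 had a liver far from the other 3, where chance, at about 1 group in 20, gives 1.6. *Mmp19* in BCL6LKOFXRKO liver 1 was at 96.8 CPM against 88.6 to 89.3 CPM in the other 3, a gap of 0.908 of the group's range. The log2 ratio of *Mmp2* to *Timp2* in FXRKO liver 2 was -2.24 against -1.60 to -1.47, a gap of 0.839 of the range, and that liver had 20 counts of *Mmp2*.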

How the results depend on the processing

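No paired analysis was possible because the labels give no pairs between the genotypes. The number of the 10 genes called higher was 7 with DESeq2, limma voom, RLE factors and a log2 fold threshold of 0.5, and 5 to 7 with each liver left out. It was 5 with total counts alone, 6 with the 50 most counted genes left out, 6 with no filter and 5 with at least 10 counts in every liver, where *Mmp12* and *Timp1* could not be tested. The number called lower was 1 throughout, except 2 with total counts alone. That scaling called 1404 of all genes higher and 2949 lower, against 1994 and 1665, so the higher genes made up 32.3% of its calls and 54.5% of those with TMM. *Mmp2*, *Mmp14*, *Timp2*, *Timp3* and *Bmp1* kept their call in all 15 alternatives. *Mmp12* kept it in 8 of 14 and *Timp1* in 6 of 14. *Mmp15*, not called in any alternative, changed sign with total counts alone (-0.044) and ranged from -0.033 to 0.21 with each liver left out. The ratios moved by less than the spread between livers with each liver left out and with a pseudocount of 5. That pseudocount mattered most for *Mmp12* to *Timp1*, whose log2 difference went from 0.76 to 1.16 (exact permutation p from 0.257 to 0.0571). Depth limits *Timp1* most, at 1 to 21 counts per liver.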
